A study of Mus musculus with 6 samples.

Results

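The TNF superfamily is a set of ligands, most of them trimeric proteins of the cell surface, and of receptors with cysteine-rich outer domains. Some receptors carry a death domain that can recruit caspase 8, others recruit TRAF adaptors that switch on NF-κB, and a few are decoys that bind a ligand without signalling. In bone and joint tissue the best known members are RANKL (*Tnfsf11*), its receptor RANK (*Tnfrsf11a*) and the soluble decoy osteoprotegerin (OPG, *Tnfrsf11b*), which together set the formation of osteoclasts, and TNF itself, a main cytokine of joint inflammation.

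Members were taken by gene symbol, as every gene named *Tnfsf* or *Tnfrsf* followed by a number, together with *Tnf*, *Lta*, *Ltb*, *Ltbr*, *Cd40*, *Cd40lg*, *Cd27*, *Cd70*, *Fas* and *Fasl*. This gave 41 of the 17854 genes listed, 17 ligands and 24 receptors. Expression was measured by bulk RNA-seq in Tomato+ cells sorted from collagenase-digested knee cartilage of male C57BL/6 mice. In one group (InjectPrrx, here MSC-derived) the cells came from mice with knee osteoarthritis caused by transection of the anterior cruciate ligament. These mice had received Tomato+ stromal cells from the inguinal white fat of *Prrx1-Cre; R26tdTomato* donors in the joint. In the other group (NativePrrx, here endogenous) they came from *Prrx1-Cre; R26tdTomato* mice of matched age and sex that carry the label in their own joint cells. *Prrx1-Cre* marks the descendants of limb mesenchyme, so in the endogenous mice the label is not limited to cartilage. Both groups carry the same Cre and reporter, and surgery, host and cell source differ together between the groups and cannot be told apart. There were 3 libraries per group, and the labels do not say that each library is 1 mouse, so p-values measure the spread between libraries, which may be technical in part.

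The expected counts summed to between 22060628 and 24881796 per library, and 3 counts correspond to 0.117 to 0.133 CPM (counts scaled to a library's total with TMM factors), a floor that covers counting error only. Endogenous replicate 1 stood apart, with 3459 genes at 0 counts against 1338 to 1948 in the other libraries. The label chondrocyte was checked against marker genes. All 8 chondrocyte markers were lower in the MSC-derived libraries, with a summed level of 429 to 442 TPM against 22300 to 23800 TPM in the endogenous ones. Osteoblast and osteocyte markers (5 of 6 lower, 220 to 238 against 28800 to 48300 TPM) and fibroblast markers (7 of 7 lower, 1850 to 1870 against 34200 to 43700 TPM) went with them. Markers of leukocytes (5 of 5 higher, 2870 to 2910 against 161 to 225 TPM), macrophages (8 of 8, 13700 to 14100 against 44.7 to 64.5 TPM) and neutrophils (7 of 7, 139000 to 148000 against 7130 to 10400 TPM) were higher in the MSC-derived libraries. So were those of B cells (3 of 5 higher, 215 to 234 against 19.6 to 29.8 TPM), T and NK cells (5 of 6 tested, 80.4 to 86.6 against 1.37 to 3.98 TPM, of which *Cd4* alone made up 70.3 to 76.2 and 0.10 to 0.41 TPM), mast cells, basophils and eosinophils (3 of 4, 1340 to 1380 against 157 to 194 TPM), erythroid cells (6 of 6, 46000 to 47600 against 10900 to 14400 TPM) and endothelium (4 of 5, 20.6 to 21.9 against 6.33 to 10.1 TPM). Of the osteoclast markers 1 of 3 tested was higher (295 to 301 against 224 to 290 TPM), and *Calcr* was at 0 in every MSC-derived library. The 3 tested skeletal muscle markers did not pass the threshold (2.33 to 3.37 against 1.83 to 4.21 TPM), and *Myh4* was at 0 in every endogenous library. The name MSC-derived follows the study's account of the sorted cells. In these libraries the summed neutrophil, erythroid and macrophage markers stood far above those of chondrocytes and fibroblasts. Below, MSC-derived cells means all sorted cells of these libraries, whatever their type, and their descent from the injected cells was not tested. The part of these cell type differences in the results below was not tested, and in bulk samples fewer cells of a type and less RNA per cell cannot be told apart.

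Of the 41 members, 34 passed the expression filter, and edgeR's quasi-likelihood test with a Benjamini-Hochberg threshold of 0.05 called 19 of these higher and 7 lower in the MSC-derived cells. Over all 14289 genes tested, 31.3% were called higher and 30.3% lower, 61.6% in all, against 55.9% and 20.6% of the tested members. With a log2 fold change of at least 1 in size as well, 16 members were higher and 7 lower, beside 19.3% and 21.9% of all genes tested. Ligands were mostly on the higher side, with 8 of 12 tested ligands higher and 1, RANKL, lower. Receptors were divided, with 11 of 22 higher and 6 lower. The median log2 fold change (MSC-derived minus endogenous) was 2.41 over the tested ligands and 0.74 over the tested receptors, beside 0.05 over all genes tested. Groups did not overlap in CPM for 30 of the 34 tested members, beside 72.4% of all genes tested.

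**Figure D1:**
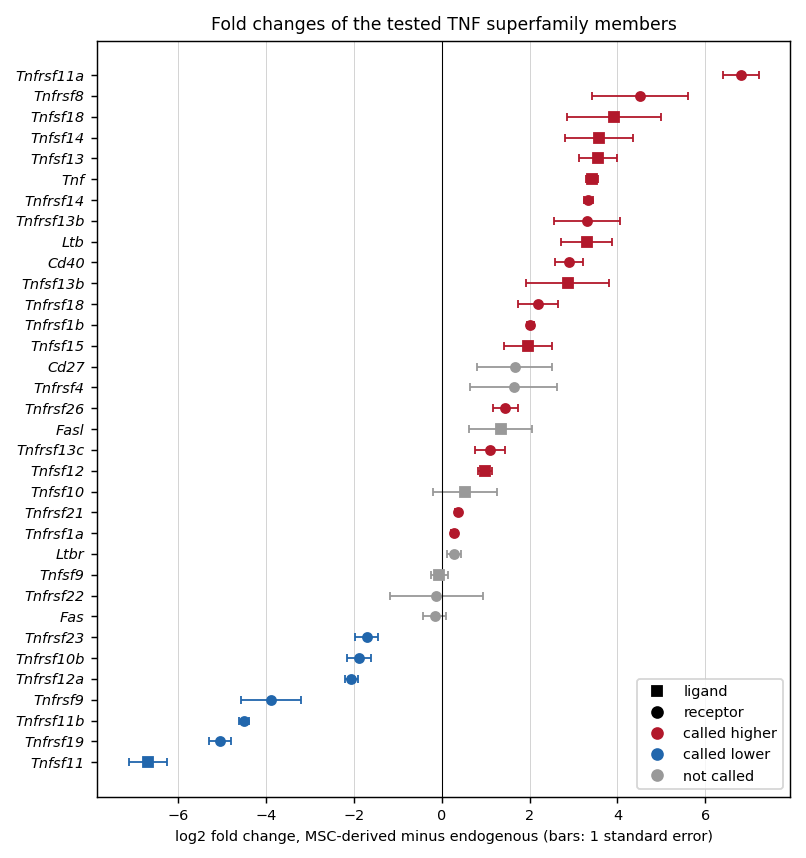
Log2 fold change of each of the 34 tested members, MSC-derived minus endogenous, with bars of 1 standard error, squares for ligands and circles for receptors. Red members were called higher and blue ones lower, and *Tnfrsf11a* (6.81) and *Tnfsf11* (-6.69), receptor and ligand of the same pair, lie at opposite ends.

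The proximal promoters of 3 genes on which the results turn are shown here, because 2 of them moved oppositely within 1 ligand and receptor pair and the third, *Tnf*, was the most abundant ligand to rise by over 10-fold. Each run is the 250 bases upstream of the start site in RefSeq for GRCm38.p6, 5′ to 3′ on the gene's strand. *Tnf* is at chr17:35202008-35202257 (minus strand), *Tnfsf11* at chr14:78308044-78308293 (minus strand) and *Tnfrsf11a* at chr1:105780473-105780722 (plus strand). Capitals mark matches, on either strand, to a TATA box (TATAAA), a GC box (GGGCGG), a PU.1 core (GAGGAA), an AP-1 site (TGANTCA), a RUNX site (ACCACA) or the κB consensus.
Tnf: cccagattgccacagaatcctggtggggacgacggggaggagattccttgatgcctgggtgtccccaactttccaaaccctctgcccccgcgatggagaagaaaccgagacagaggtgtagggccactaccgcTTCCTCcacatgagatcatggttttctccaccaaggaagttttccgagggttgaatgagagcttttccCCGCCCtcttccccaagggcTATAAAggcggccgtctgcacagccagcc
Tnfsf11: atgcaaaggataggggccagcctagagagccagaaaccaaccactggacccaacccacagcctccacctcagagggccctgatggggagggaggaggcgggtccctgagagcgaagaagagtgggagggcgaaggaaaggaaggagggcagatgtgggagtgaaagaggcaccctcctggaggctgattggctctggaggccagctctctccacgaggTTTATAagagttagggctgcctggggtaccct
Tnfrsf11a: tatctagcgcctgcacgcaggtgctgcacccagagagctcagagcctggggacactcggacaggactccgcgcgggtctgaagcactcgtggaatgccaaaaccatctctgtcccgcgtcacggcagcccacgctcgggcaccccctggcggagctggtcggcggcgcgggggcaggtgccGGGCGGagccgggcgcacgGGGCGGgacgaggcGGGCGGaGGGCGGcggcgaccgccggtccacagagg

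The *Tnf* run held a TATA box 29 to 24 bases before the start, 1 GC box and 1 PU.1 core. That of *Tnfsf11* held a TATA box 32 to 27 bases before the start, read on the opposite strand, and no other match. That of *Tnfrsf11a* held 4 GC boxes and no TATA box. A TATA box was found in 12.4% and a GC box in 32.7% of the 32851 promoter windows of the same length in the table. A PU.1 core was found in 23.3%, an AP-1 site in 6.75%, a RUNX site in 14% and the κB consensus in 7.25%. Promoters were matched for 31 members, of which 6 held a TATA box, 15 a GC box, 12 a PU.1 core, 6 an AP-1 site, 3 a RUNX site and 4 (*Ltb*, *Tnfrsf25*, *Tnfrsf8* and *Tnfrsf9*) the κB consensus. A member was counted if any window of it held the motif, while the shares above are per window, so the measures are not alike. These are letter matches and were not tested against the expression values.

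Within the RANKL axis, ligand and decoy were higher in the endogenous cells and the receptor in the MSC-derived cells. *Tnfsf11*, the ligand that osteoblast-lineage cells and hypertrophic chondrocytes present to osteoclast precursors, had 50.3, 29.7 and 32.6 CPM in endogenous replicates 1 to 3. In the MSC-derived libraries it had 0.156, 0.328 and 0.612 CPM, from 4, 8 and 14 counts. The groups were far apart, and *Tnfsf11* was 103-fold lower in the MSC-derived cells (log2 fold change -6.69, standard error 0.43, adjusted p = 7.33e-06).

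*Tnfrsf11a*, the receptor carried by osteoclast precursors and other myeloid cells, showed the reverse, with 11.8, 11.4 and 12.6 CPM in the MSC-derived libraries and 1, 4 and 2 counts in the endogenous ones. The ratio of the summed counts, corrected for library size, was 118 (95% counting interval 57 to 294), and edgeR put the log2 fold change at 6.81 ± 0.41 (SE; adjusted p = 5.54e-06). In the 17 alternatives run for *Tnfrsf11a* it was called higher each time, with log2 fold changes from 1.74 to 7.39. *Csf1r*, the receptor that marks the monocyte and macrophage lineage, had 713 ± 8.78 CPM against 12.1 ± 1.58 CPM (SD, n = 3), a log2 fold change of 5.88 (adjusted p = 5.66e-08).

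*Tnfrsf11b* encodes OPG, which traps RANKL. It had 852, 682 and 707 CPM in the endogenous libraries and 33.9, 32.2 and 32.9 CPM in the MSC-derived ones. It was the highest receptor transcript of the endogenous cells and was 22.6-fold lower in the MSC-derived cells (log2 fold change -4.50, standard error 0.11, adjusted p = 1.00e-07). Because RANKL fell further than OPG, the MSC-derived libraries held more OPG transcript for each RANKL transcript, 151, 71.9 and 40.8 on the TPM scale, than the endogenous ones, with 13.2, 17.9 and 16.9. The log2 ratio of RANKL to OPG was -6.25 ± 0.95 against -3.99 ± 0.23 (SD, n = 3), and the groups did not overlap. The difference of -2.26 had an exact two-sided permutation p of 0.1, the smallest that 3 libraries against 3 can give. The MSC-derived ratios rest on the 4 to 14 RANKL counts named above.

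**Figure D2:**
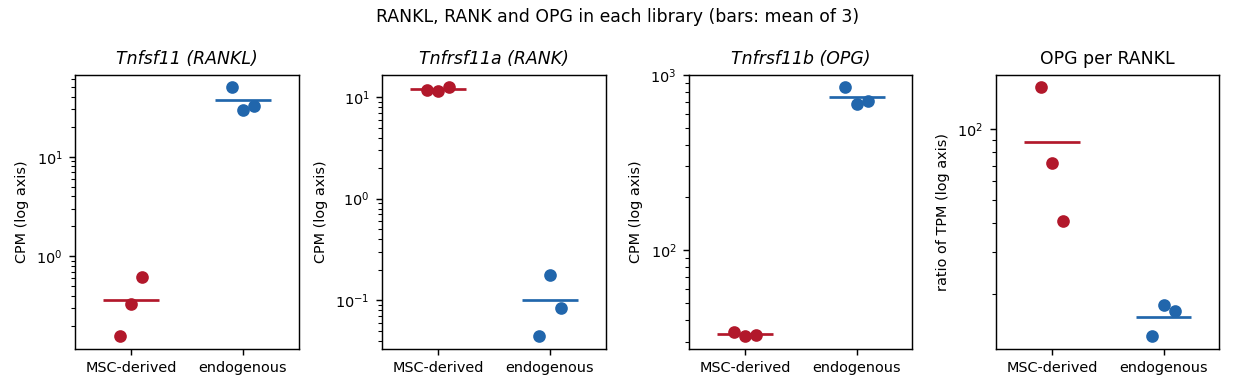
CPM (log axis) of *Tnfsf11*, *Tnfrsf11a* and *Tnfrsf11b* in each library and, at the right, OPG transcripts per RANKL transcript (TPM ratio, log axis). Points are single libraries and bars the mean of 3, and the groups do not overlap in any panel: RANKL and OPG are lower and RANK is higher in the MSC-derived libraries, where OPG per RANKL is 40.8 to 151.

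Among 14 genes that RANK signalling or osteoclast differentiation is known to use, 7 of the 11 tested were higher and 1 lower (63.6% and 9.09%, beside 31.3% and 30.3% of all genes tested). RANK itself is one of the higher genes, and the next largest rise was that of *Csf1r*. The gene that fell was *Nfatc1*, the transcription factor that drives osteoclast differentiation and that many mesenchymal cells also express, at 76.3 ± 4.66 against 435 ± 18.9 CPM (SD, n = 3, log2 fold change -2.51, adjusted p = 2.43e-07). *Acp5*, *Mmp9*, *Atp6v0d2*, *Spi1* and *Mitf* rose with log2 fold changes of 2.12, 2.77, 2.08, 3.99 and 1.44. *Ctsk*, the collagenase of osteoclasts, had 166 ± 7.54 and 170 ± 24.9 CPM (SD, n = 3, adjusted p = 0.805). *Itgb3* (adjusted p = 0.478) and *Ocstamp* (adjusted p = 0.345) were not called either, and *Ocstamp*, a gene of osteoclast fusion, had 37, 17 and 2 counts in the MSC-derived libraries and 0, 12 and 7 in the endogenous ones. The 3 genes that were not tested had few counts in the MSC-derived libraries, with 0 in each for *Calcr*, 0, 1 and 0 for *Oscar* and 1, 7 and 0 for *Dcstamp*. In the endogenous libraries *Calcr* had 0, 0 and 10 counts, *Oscar* 47, 6 and 5 and *Dcstamp* 0, 14 and 18.

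Of the 8 members of the TNF and lymphotoxin branch 7 were tested, and 6 of these were higher in the MSC-derived cells, the ligands *Tnf*, *Ltb* and *Tnfsf14* and the receptors *Tnfrsf1a*, *Tnfrsf1b* and *Tnfrsf14*. The shares were 85.7% higher and 0% lower, beside 31.3% and 30.3% of all genes tested. For *Tnfrsf1a* the direction was the opposite on the TPM scale, and *Lta*, which was not tested, had its higher counts in 2 endogenous libraries. *Tnf* had 43.4, 39.8 and 41.1 CPM in the MSC-derived libraries and 4.05, 3.85 and 3.72 CPM in the endogenous ones. It rose 10.7-fold (log2 fold change 3.42, standard error 0.13, adjusted p = 5.06e-07), and the spread within each group was small beside the difference. *Ltb*, the membrane partner of lymphotoxin α on lymphoid cells, had 12.2, 10.2 and 12.2 CPM against 0.352, 0.884 and 2.26 CPM.

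The rise of *Ltb*, 3.30 ± 0.58 on the log2 scale (SE; adjusted p = 0.00190), became 4.21 without endogenous replicate 3, the highest of its group. Without endogenous replicate 1 it became 2.81. *Tnfsf14* (LIGHT), a ligand of leukocytes for HVEM and the lymphotoxin β receptor, had 10.4, 8.82 and 10.2 CPM against 0.0441, 0.884 and 1.51 CPM. Its log2 fold change was 3.58 (standard error 0.78, adjusted p = 0.00529), and it was 2.97 without endogenous replicate 1 and 4.39 without endogenous replicate 3. *Lta* (lymphotoxin α) is the neighbour of *Tnf* and *Ltb* in the genome. *Lta* had 9, 6 and 0 counts in the MSC-derived libraries and 0, 22 and 25 in the endogenous ones, and did not pass the filter. In fits that tested it, *Lta* was called only without endogenous replicate 1, the endogenous library without a count (log2 fold change -2.33, adjusted p = 0.00536).

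The receptors for TNF differed in the size of their rise. *Tnfrsf1b* (TNFR2), which is strongest on leukocytes, had 240, 225 and 238 CPM in the MSC-derived libraries and 58.9, 53.3 and 60.8 CPM in the endogenous ones, a 4.06-fold rise (log2 fold change 2.02, standard error 0.08, adjusted p = 7.39e-07). *Tnfrsf1a* (TNFR1), the death domain receptor found on most cells, had 274, 280 and 279 CPM against 213, 237 and 236 CPM. Its rise was 0.28 ± 0.07 in log2 units (SE; adjusted p = 0.0103). That call was lost with upper quartile scaling (adjusted p = 0.0856), and on the TPM scale *Tnfrsf1a* was lower instead (log2 fold change -0.16, adjusted p = 0.0404). The TPM scale shifted the median of all genes tested to -0.28, so the sign of small differences depends on the scaling. Within a library, where scaling plays no part, *Tnfrsf1b* was at 0.394 to 0.429 of the *Tnfrsf1a* level in the MSC-derived libraries and at 0.112 to 0.128 in the endogenous ones.

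*Tnfrsf14* (HVEM), the receptor of LIGHT on leukocytes, was among the steadiest differences. It had 71.9, 69.3 and 74.3 CPM in the MSC-derived libraries and 7.05, 7.61 and 6.61 CPM in the endogenous ones, a 10.1-fold rise (log2 fold change 3.34, standard error 0.11, adjusted p = 2.82e-07). *Ltbr*, the lymphotoxin β receptor of stromal and myeloid cells, had 74.1 to 83.8 CPM against 51.4 to 73.8 CPM and was not called (adjusted p = 0.139), with a log2 fold change of 0.28. With library size alone *Ltbr* was higher (0.40, adjusted p = 0.0434), as it was with limma on FPKM values (0.40 and 0.41, adjusted p = 0.0379 and 0.0412), while on the TPM scale its sign was the opposite (-0.14).

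Genes of the BAFF and APRIL system, which keeps B cells and plasma cells alive, were higher wherever they could be tested (4 of 4, beside 31.3% of all genes tested). *Tnfsf13* (APRIL), a ligand made by myeloid cells, had 17.0, 21.4 and 17.5 CPM in the MSC-derived libraries and 0.705, 2.65 and 1.42 CPM in the endogenous ones, an 11.7-fold rise (adjusted p = 0.000271). *Tnfsf13* overlaps *Tnfsfm13*, a read-through gene that joins it to *Tnfsf12* and was called higher too (log2 fold change 1.85, adjusted p = 0.0392). Reads could have been divided among them, so the values of *Tnfsf13* and *Tnfsf12* are uncertain. *Tnfsf13b* (BAFF) had 8.84, 9.85 and 7.48 CPM against 0, 1.72 and 1.84 CPM. The log2 fold change of *Tnfsf13b* was 2.87 (standard error 0.94, adjusted p = 0.0310). The call was lost without any 1 MSC-derived library or without endogenous replicate 2 (adjusted p from 0.0641 to 0.102), and without endogenous replicate 1 the log2 fold change was 2.23 (adjusted p = 3.85e-08).

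Of the receptors, *Tnfrsf13b* (TACI) had 12.0, 11.1 and 14.2 CPM in the MSC-derived libraries and 0.0881, 1.64 and 2.01 CPM in the endogenous ones. The log2 rise of *Tnfrsf13b*, 3.31 ± 0.75 (SE; adjusted p = 0.00619), was 2.71 without endogenous replicate 1. *Tnfrsf13c* (BAFF receptor), the survival receptor of mature B cells, had 6.02, 6.52 and 4.98 CPM against 3.35, 1.68 and 3.14 CPM. It was 2.14-fold higher (adjusted p = 0.0267), but not without any 1 MSC-derived library or without endogenous replicate 2 (adjusted p from 0.0533 to 0.0986), nor on the TPM scale (adjusted p = 0.0972). With the replicate number as a block the adjusted p of *Tnfrsf13c* was 0.0680. *Tnfrsf17* (BCMA), the receptor of plasma cells, had 7, 4 and 8 counts against 0, 0 and 1, which was too few for the filter, and passed when no filter was applied (adjusted p = 0.0495) but not in DESeq2 (adjusted p = 0.0636). The summed B cell markers moved in the same direction as this group. In the MSC-derived libraries *Cd79b* alone made up 161 to 173 TPM of that sum (215 to 234 TPM). *Ms4a1* (adjusted p = 0.0653) and *Pax5* (adjusted p = 0.216) were not called in edgeR. The part of B cells in the BAFF and APRIL group was not tested.

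The costimulatory pairs, through which antigen-presenting cells and T cells act on each other, were unevenly detected. Of 14 such members 9 were tested, 5 of which were higher and 1 lower (55.6% and 11.1%, beside 31.3% and 30.3% of all genes tested). *Cd40*, the receptor on antigen-presenting cells, had 8.80, 7.79 and 7.04 CPM in the MSC-derived libraries and 1.32, 0.752 and 1.09 CPM in the endogenous ones, a 7.44-fold rise (adjusted p = 0.000164). *Tnfrsf18* (GITR), a receptor of regulatory T cells, had 2.93, 3.16 and 3.10 CPM against 1.01, 0.531 and 0.460 CPM (4.56-fold, adjusted p = 0.00466). *Tnfsf18*, its ligand, had 19, 14 and 20 counts against 0, 0 and 3.

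The ratio of the summed counts of *Tnfsf18* was 16.8 (95% counting interval 5.44 to 84), with an adjusted p of 0.0144 in edgeR. That call was lost without any 1 MSC-derived library (adjusted p from 0.0546 to 0.0731) and without endogenous replicate 2 (0.0501), and without endogenous replicate 3, the only endogenous library with counts, the fitted log2 fold change went from 3.93 to 7.12. Without endogenous replicate 1 the fitted value was 3.35. *Tnfrsf8* (CD30), a receptor of activated lymphocytes, had 11, 28 and 17 counts against 0, 0 and 2, a ratio of 26.6 (95% counting interval 7.03 to 225, adjusted p = 0.00845). Its adjusted p was 0.0539 without MSC-derived replicate 2. The fitted log2 fold change of *Tnfrsf8* went from 4.52 to 7.20 without endogenous replicate 3 and to 3.96 without endogenous replicate 1.

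*Tnfsf15* (TL1A), a ligand of endothelial and myeloid cells for *Tnfrsf25*, had 3.64, 3.86 and 4.77 CPM in the MSC-derived libraries and 1.89, 0.619 and 0.628 CPM in the endogenous ones. It was 3.89-fold higher (adjusted p = 0.0150), with an adjusted p of 0.0635 without MSC-derived replicate 3 and a log2 fold change of 2.65, in place of 1.96, without endogenous replicate 1. *Tnfrsf9* (CD137) was the only costimulatory receptor called lower. It had 3.66, 2.74 and 2.97 CPM in the endogenous libraries and 0.313, 0.0410 and 0.262 CPM in the MSC-derived ones, a 14.8-fold fall (log2 fold change -3.89, standard error 0.68, adjusted p = 0.00176). Its ligand *Tnfsf9* was at like levels in both groups, with 8.84 to 11.2 and 8.90 to 12.2 CPM (adjusted p = 0.832), and was the third most abundant ligand of the endogenous cells. On the TPM scale *Tnfsf9* was called lower (log2 fold change -0.45, adjusted p = 0.0292).

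The other costimulatory members were not called or not tested. *Cd27*, a receptor of lymphocytes, had 1.72 to 2.50 CPM in the MSC-derived libraries and 0.0441, 0.884 and 1.09 CPM in the endogenous ones. It was not called (adjusted p = 0.133), but was without endogenous replicate 1 (log2 fold change 1.05 in place of 1.66, adjusted p = 0.0221) and with limma on FPKM values (adjusted p = 0.0106 and 0.0412). *Tnfrsf4* (OX40) had 17, 16 and 17 counts against 0, 11 and 4 (adjusted p = 0.190). It was called with limma on FPKM values (adjusted p = 0.0186 and 0.0449), and its log2 fold change of 1.64 was 1.02 without endogenous replicate 1 and 2.90 without endogenous replicate 2. *Tnfsf4* (at most 4 counts), *Cd40lg* (3 counts in 1 MSC-derived library and 0 in all others), *Cd70* (at most 1 count), *Tnfsf8* (8 to 26 against 0 to 8 counts) and *Tnfrsf25* (1 to 8 against 5 to 14 counts) did not pass the filter, and none of these 5 was called in the fit without a filter or, where it gave an adjusted p, in DESeq2. The receptor CD40 was measured at 6.06 to 7.66 TPM in MSC-derived libraries in which its ligand had at most 3 counts, which is at the floor.

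TWEAK and its receptor moved in opposite directions. *Tnfsf12* (TWEAK), a ligand made by monocytes and macrophages among other cells, had 62.1, 55.5 and 57.1 CPM in the MSC-derived libraries and 22.4, 33.7 and 32.3 CPM in the endogenous ones, a 1.97-fold rise (log2 fold change 0.98, standard error 0.16, adjusted p = 0.00146). *Tnfrsf12a* (Fn14), its receptor on mesenchymal and injured tissue, had 33.2, 32.4 and 31.0 CPM against 106, 146 and 150 CPM, a 4.16-fold fall (log2 fold change -2.06, standard error 0.15, adjusted p = 1.31e-05). Within a library there were 1.04 to 1.15 *Tnfrsf12a* transcripts per *Tnfsf12* transcript in the MSC-derived cells and 8.52 to 9.25 in the endogenous cells, on the TPM scale.

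Of the 7 tested members of the death receptor branch, 2 were lower, 1 was higher and 4 were not called. The shares were 28.6% lower and 14.3% higher, beside 30.3% and 31.3% of all genes tested. *Tnfrsf10b*, the mouse TRAIL receptor with a death domain, had 15.4, 27.3 and 26.8 CPM in the endogenous libraries and 4.77, 7.18 and 6.95 CPM in the MSC-derived ones (3.68-fold lower, adjusted p = 0.000796). *Tnfrsf23*, a decoy receptor for TRAIL, had 20.3, 20.3 and 16 CPM against 7.08, 3.82 and 6.38 CPM (3.28-fold lower, adjusted p = 0.000872). *Tnfrsf26*, a neighbour of the decoys, was higher instead, with 5.94, 7.51 and 7.21 CPM in the MSC-derived libraries and 2.78, 2.87 and 1.88 CPM in the endogenous ones (2.74-fold, adjusted p = 0.00348). *Tnfrsf22*, *Tnfrsf23* and *Tnfrsf26* lie side by side as related copies, among which reads may have been divided, so their separate values are uncertain.

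*Tnfrsf22*, the other TRAIL decoy, had 2.15 to 3.67 CPM in the MSC-derived libraries and 0.0441, 4.20 and 4.90 CPM in the endogenous ones (adjusted p = 0.926). Without endogenous replicate 1, which had 1 count, *Tnfrsf22* was lower (log2 fold change -0.76, adjusted p = 0.0182). *Tnfsf10* (TRAIL) had 2.97, 2.05 and 3.37 CPM against 4.27, 0.796 and 0.711 CPM, so that the groups overlapped through endogenous replicate 1 alone (adjusted p = 0.551). Without that library *Tnfsf10* was higher (log2 fold change 1.83 in place of 0.54, adjusted p = 0.000387).

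*Fas*, the death receptor found on many cell types, had 18.3 to 22.3 CPM against 15.9 to 32.2 CPM and the groups overlapped (adjusted p = 0.621). Its ligand *Fasl*, of cytotoxic lymphocytes, had 14, 18 and 16 counts in the MSC-derived libraries and 2, 5 and 11 in the endogenous ones (log2 fold change 1.34, adjusted p = 0.137). Of the alternatives, limma on FPKM values called it (adjusted p = 0.0324 and 0.0361). Its log2 fold change was 2.06 without endogenous replicate 3 and 0.88 without endogenous replicate 1.

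The remaining receptors lie outside these branches. *Tnfrsf19* (TROY), a receptor of embryonic and skeletal progenitors without a settled ligand, had 52.6, 48.9 and 42.1 CPM in the endogenous libraries and 0.938, 1.60 and 1.84 CPM in the MSC-derived ones, a 32.9-fold fall (log2 fold change -5.04, standard error 0.25, adjusted p = 2.13e-06). *Tnfrsf21* (DR6), which carries a death domain, had 194, 193 and 193 CPM in the MSC-derived libraries and 154, 152 and 142 CPM in the endogenous ones. It was 1.29-fold higher (adjusted p = 0.00220), but on the TPM scale its log2 fold change was -0.07 (adjusted p = 0.542).

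Levels of different genes were compared per length, in TPM, within a group. The 17 ligands summed to 149 ± 4.16 TPM in the MSC-derived libraries and 96.5 ± 3.74 TPM in the endogenous ones (SD, n = 3), and the 24 receptors to 538 ± 3.05 and 1260 ± 95.6 TPM. In the MSC-derived cells the leading ligands were *Tnfsf12* at 49.6 ± 3.05 TPM and *Tnf* at 36.3 ± 1.71 TPM, which held 33.3% and 24.4% of ligand transcripts. *Ltb* (16.3 ± 1.59 TPM) and *Tnfsf13* (16.1 ± 2.10 TPM) followed and overlapped each other. In the endogenous cells *Tnfsf12* (33.8 ± 4.80 TPM) and *Tnfsf11* (32.5 ± 12.5 TPM) overlapped each other at the top, ahead of *Tnfsf9* (16.9 ± 2.13 TPM), while *Tnf* was at 4.62 ± 0.557 TPM.

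*Tnfrsf1a* led the receptors of the MSC-derived cells, at 181 ± 1.92 TPM, ahead of *Tnfrsf1b* (75.4 ± 2.80 TPM) and *Tnfrsf21* (72.1 ± 0.648 TPM), which overlapped each other. *Tnfrsf12a* (53.7 ± 2.40 TPM) and *Ltbr* (53.0 ± 3.02 TPM) came next and also overlapped. In the endogenous cells *Tnfrsf11b* was first at 499 ± 103 TPM, with 39.5% of receptor transcripts, then *Tnfrsf12a* at 303 ± 36.5 TPM and *Tnfrsf1a* at 202 ± 3.10 TPM, with no overlap between these 3. *Tnfrsf11a* was 14th of 24 receptors in the MSC-derived cells, at 2.95 ± 0.0721 TPM, and 22nd in the endogenous cells, at 0.0333 ± 0.0231 TPM.

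**Figure D3:**
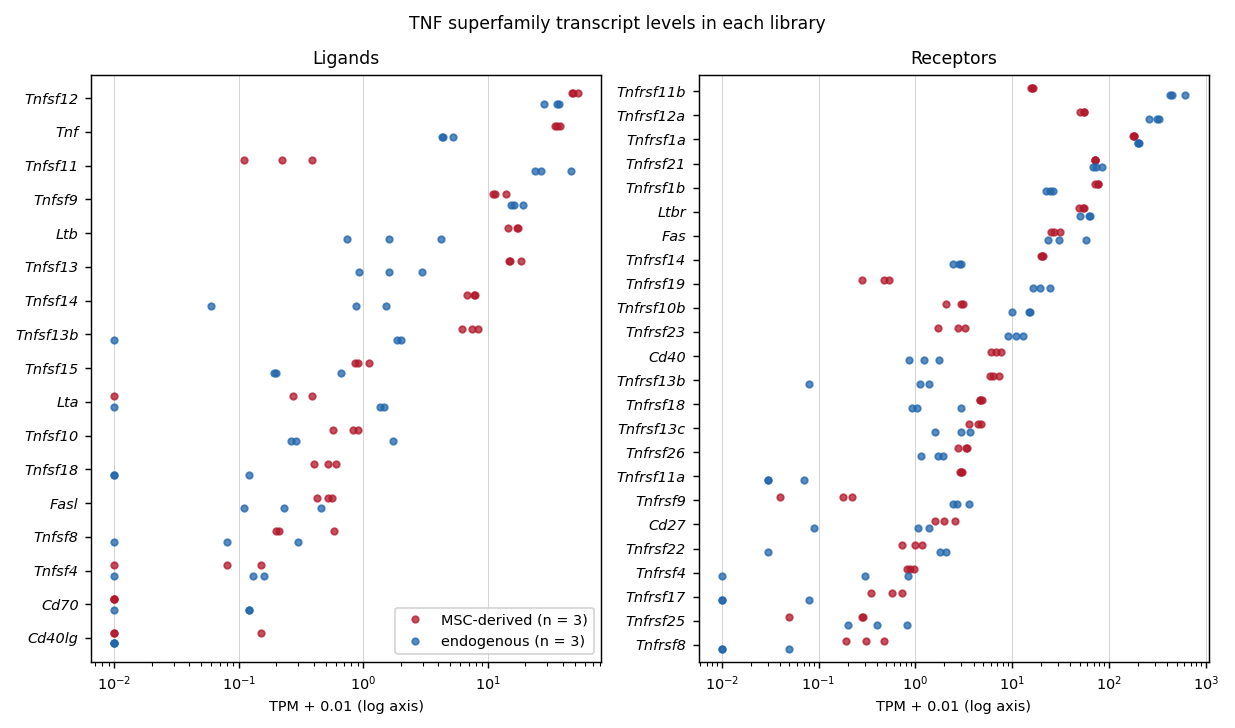
TPM of every member in each library (log axis, 0.01 added so that 0 can be drawn), ligands at left and receptors at right, with 3 points per group. *Tnfsf11*, *Tnfrsf11b* and *Tnfrsf19* are high in the endogenous libraries (blue), *Tnf*, *Tnfrsf14* and *Tnfrsf11a* in the MSC-derived ones (red), and a single endogenous library trails the other two for *Tnfsf14*, *Tnfsf13b*, *Tnfrsf13b*, *Cd27* and *Tnfrsf22*.

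Ligand and receptor were set side by side for 25 known pairs, of which 16 had both genes tested. Both were called higher in 7 of these pairs, which were TNF with either receptor, LIGHT with HVEM, GITR ligand with GITR, APRIL with TACI, and BAFF with TACI or the BAFF receptor. Among the genes of these pairs, *Tnfrsf1a*, *Tnfsf18*, *Tnfsf13b* and *Tnfrsf13c* lost their calls in some alternatives, as given above. *Tnfrsf1a* was called lower on the TPM scale. RANKL and OPG were both lower. Opposite calls were made for RANKL with RANK, where the ligand was lower, and for TWEAK with Fn14, where the receptor was lower. The pairs share genes and are not independent of each other, so no test was made over them. As single genes, 55.9% of the tested members and 31.3% of all genes tested were called higher. A share to be expected for pairs was not worked out.

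**Figure D4:**
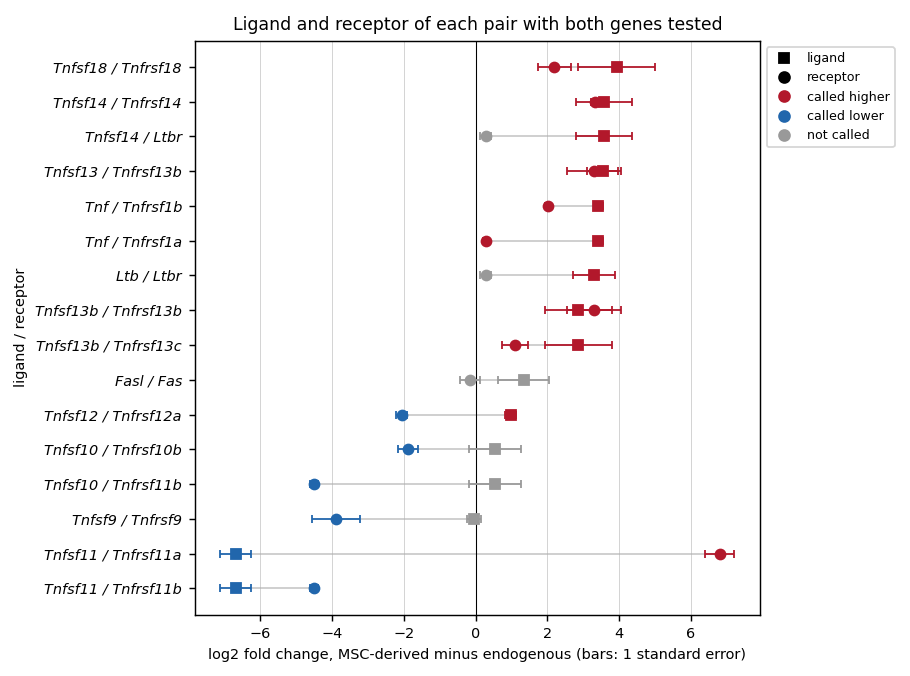
Log2 fold change (MSC-derived minus endogenous) of the ligand (square) and the receptor (circle) of the 16 pairs with both genes tested, with bars of 1 standard error and a grey line joining the pair. Both marks are red for 7 pairs and both blue for *Tnfsf11* with *Tnfrsf11b*, and the longest line joins *Tnfsf11* (-6.69) to *Tnfrsf11a* (6.81).

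The superfamily also holds 5 genes with symbols outside the rule, namely *Eda*, *Edar*, *Eda2r*, *Ngfr* and *Relt*. The ectodysplasin receptor gene *Edar* had 68, 129 and 133 counts in the endogenous libraries and 0, 0 and 1 in the MSC-derived ones, and its ligand *Eda* was also lower (log2 fold change -3.12, adjusted p = 0.00477). *Ngfr*, the nerve growth factor receptor of stromal and glial cells, fell by 4.14 on the log2 scale (adjusted p = 0.00568). It had 92, 21 and 27 counts in endogenous replicates 1 to 3 and 1, 5 and 2 in the MSC-derived libraries. The size of its fall thus leans on endogenous replicate 1. *Relt* (adjusted p = 0.0506) and *Eda2r* (adjusted p = 0.544) did not pass.

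Genes that carry the signal inside the cell were taken from lists. Of 19 receptor adaptors and their partners, 13 were higher and 2 lower (68.4% and 10.5%, beside 31.3% and 30.3% of all genes tested), with a median log2 fold change of 0.96 beside 0.05 over all genes tested. The largest rises were those of *Traf3ip3* (2.32, adjusted p = 0.00751) and *Madd* (1.97, adjusted p = 4.73e-05), a death domain adaptor of TNFR1, and *Casp8*, the initiator caspase of death receptors, rose by 1.94. Of the genes whose products assemble at TNFR1, *Tradd*, *Fadd*, *Ripk1*, *Traf2*, *Cflar* and *Birc3* were among the higher genes, with log2 fold changes from 0.51 to 1.35, while *Birc2* was not called (log2 fold change -0.39, adjusted p = 0.0540). In TPM the groups overlapped for *Traf2* (16.1 to 19.9 MSC-derived, 15.6 to 18.2 endogenous) and *Ripk1* (19.8 to 22.8 and 14.9 to 20.6). They did so too for *Tank* (37 to 39.6 and 18.6 to 41.1) and *Traip* (3.38 to 5.72 and 1.92 to 3.62), other higher genes of the list. The lower genes were *Traf4* (-1.61, adjusted p = 3.47e-05) and *Traf3ip2* (-1.56, adjusted p = 0.00147), an adaptor of interleukin 17 receptors. *Traf6*, through which RANK signals, had 23.7 ± 2.23 against 14.4 ± 0.331 CPM (SD, n = 3, log2 fold change 0.71, adjusted p = 0.00225).

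Of 22 NF-κB genes 10 were higher and 3 lower (45.5% and 13.6%, beside 31.3% and 30.3% of all genes tested), and the median log2 fold change was 0.25. In TPM *Relb*, called higher in edgeR (adjusted p = 0.0489), was lower in the MSC-derived libraries (30.2 to 38.3 against 39.6 to 41.6). The groups overlapped in TPM for *Bcl3* (70 to 72.4 MSC-derived, 64.8 to 73.5 endogenous) and *Cyld* (7.2 to 7.47 and 6.32 to 9.76). They also overlapped for *Ikbkb* (19.7 to 26.2 and 13.4 to 19.8) and met at 3.67 for *Ikbkg*. The 2 largest rises were those of inhibitors that NF-κB itself induces, *Tnfaip3* (A20), at 299 ± 6.08 against 73.2 ± 3.89 CPM (SD, n = 3, log2 fold change 2.03, adjusted p = 4.33e-07), and *Nfkbie* (1.86, adjusted p = 5.93e-06). *Nfkbiz* and *Tnip2* fell by 1.18 and 1.05 on the log2 scale. The subunits were divided, with *Rel* higher (1.01), *Rela* lower (-0.47) and *Nfkb1* not called (adjusted p = 0.277). *Nfkbia*, another induced inhibitor, had 782 ± 12.2 and 701 ± 131 CPM (SD, n = 3, adjusted p = 0.327).

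Among 13 genes of death execution 10 were higher (76.9%, beside 31.3% of all genes tested) and the other 3 did not pass. In TPM the groups overlapped for *Cycs*, one of the higher genes (79.3 to 84.5 MSC-derived, 80.8 to 106 endogenous). The largest rises were those of *Ripk3* (log2 fold change 2.48, adjusted p = 1.31e-06), the kinase of necroptosis, and *Bid* (2.45, adjusted p = 0.00260), which links death receptors to mitochondria. *Mlkl*, the effector of necroptosis, rose by 1.51. *Xiap*, an inhibitor of caspases, was higher as well (0.80), so the list holds both sides of the process.

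The 6 genes that shed ligands and receptors from the cell surface or hold this in check were all called, 3 in each direction, beside 61.6% called of all genes tested. *Adam17*, which releases TNF, and its carrier *Rhbdf2* (iRhom2) rose by 0.50 and 1.24 on the log2 scale, and *Adam10* by 0.84. In TPM the groups overlapped for *Adam17* (21.3 to 23.4 MSC-derived, 18.1 to 27.9 endogenous) and *Adam10* (27.1 to 28.7 and 17.4 to 28.1). *Timp3*, the inhibitor of ADAM17, had 97.1 ± 2.98 against 937 ± 80.3 CPM (SD, n = 3, log2 fold change -3.27, adjusted p = 1.23e-07), and *Rhbdf1* and *Furin* fell by 2.26 and 1.29. The iRhom genes took opposite directions. Of 8 genes named as TNF-induced proteins, 4 were higher and 1 lower (50% and 12.5%, beside 31.3% and 30.3% of all genes tested). *Tnfaip8l2* (4.13, adjusted p = 0.000132) and *Tnfaip8* (2.58, adjusted p = 6.45e-07) rose most, and *Tnfaip1* fell by 0.70. *Tnfaip3* is in this list and in that of NF-κB. In each of these lists the leukocyte markers given above moved with the rises, and their part was not tested.

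**Figure D5:**
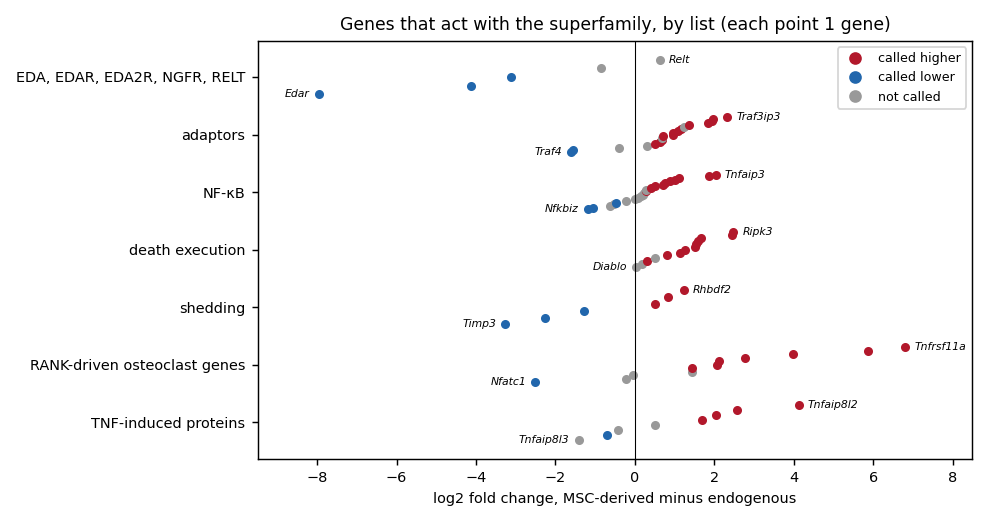
Log2 fold change (MSC-derived minus endogenous) of each tested gene in 7 lists of genes that act with the superfamily, with red for called higher, blue for called lower and grey for not called, and names at the ends of each list. Adaptors and death execution genes lie mostly to the right of 0, the shedding list is divided 3 to 3, and *Nfatc1* (-2.51) is the 1 called fall in the RANK list, which includes the member *Tnfrsf11a*.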

How the data were processed

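According to the methods, SOAPnuke was used to filter reads, HISAT2 and Bowtie2 to align them and RSEM to quantify genes. The processing notes of the submitters name Bowtie2 2.2.5, RSEM 1.2.12 and mm9, and the paper's methods give other versions. The deposited expected count of each gene is not normalized. The deposited FPKM and TPM are per length, and TPM has the same sum in each library. A further deposited signal, the scaled count, was not used. The 24 columns were mapped to samples by name, and 8 columns of group means were not used.

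Expected counts were rounded (20.6% of values changed) and tested in R 4.3.3 with the quasi-likelihood test of edgeR 4.0.16 (TMM, filterByExpr, glmQLFit, glmQLFTest). The Benjamini-Hochberg adjustment covered all 14289 genes that passed the filter, and 0.05 was the threshold. The standard error is the log2 fold change divided by the square root of F. CPM values use TMM-scaled library sizes. Counting intervals are exact conditional binomial at 95% and cover counting error only, as does the floor of 3 counts. The log2 RANKL to OPG ratio used TPM + 0.01 and an exact permutation test. The code was checked on simulated counts. Every member is named in the text, and of each list the 2 largest rises and falls among the called genes. The members and lists were chosen with earlier results of these data known, and a few further genes were named for their role after their values were seen. Single values of some genes in the lists are not reported here. Promoters are from RefSeq (GRCm38.p6), another build than that of the files. Figures used matplotlib 3.10.9.

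Alternatives were DESeq2 1.42.0, other scalings, other filters, the replicate number as a block, limma 3.58.1 on log2 FPKM, a threshold of 0.001 and each library left out. A limma fit on log2(TPM + 1) was added after the data were seen. Within groups, counts of libraries differed by more than sampling noise (chi-square per gene 3.84 to 4.24 between MSC-derived libraries, 5.30 to 56.6 between endogenous ones).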

Additional observations from a re-analysis of the deposited data

How the results depend on the processing

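Up to 17 alternatives were run per tested member, and they were not read for the single genes of the lists. In edgeR's test 19 members were higher, 15 to 21 with 1 library left out, and 7 were lower, 7 to 9 with 1 library left out. With all genes these ranges were 3672 to 5563 higher and 3761 to 5686 lower. A threshold of 0.001 left 6 members higher and 6 lower, and 2134 genes higher and 2380 lower. On log2(TPM + 1), 16 members were higher and 9 lower, but 3124 of all genes were higher and 5962 lower, against 4468 and 4333. The share of all calls that were higher was 34.4% there and 50.8% with TMM (members, 64% and 73.1%). The median over all genes was -0.28 on the TPM scale, 0.16 with library size alone and 0.13 and 0.19 in limma on FPKM, against 0.05. Of the single members' values under the alternatives, 527 kept direction and call, 17 lost the call, 13 gained it and 17 changed sign. The sign changes were those of *Tnfsf9* (0.06 with library size alone, 0.08 in limma on log2(FPKM + 1) and on log2(FPKM + 0.1), 0.02 without MSC-derived replicate 1 and 0.06 without endogenous replicate 2, with -0.20 to 0.06 over the libraries left out), of *Tnfrsf1a*, *Ltbr* and *Tnfrsf21* on the TPM scale (-0.16, -0.14 and -0.07), of *Fas* (0.23 and 0.24 in limma on FPKM, 0.15 without endogenous replicate 1, with -0.38 to 0.15 over the libraries left out) and of *Tnfrsf22* (0.66 with the replicate block, 0.11 and 0.68 in limma on FPKM, 0.04 without MSC-derived replicate 1, and 0.11 and 0.40 without endogenous replicates 2 and 3, with -0.76 to 0.40 over the libraries left out). Only *Tnfrsf1a* was called on both sides. The pseudocount of 1 FPKM or TPM shrinks low genes by construction, to 1.74 for *Tnfrsf11a* and -3.93 for *Tnfsf11*. The difference in the log2 RANKL to OPG ratio ran from -2.72 to -1.72, with exact p from 0.1 to 0.2.

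Same-numbered libraries did not deviate together (correlations of 0.01, 0.00 and 0.02), so no pairing by number was seen. Endogenous replicate 1 weighs on the deviations of its group, so this check could not decide whether the numbers pair the samples. With the replicate block 18 members were higher and 7 lower, and 4103 and 3920 of all genes, and of the members only *Tnfrsf13c* lost its call. Depth limits the members near 3 counts in a library, and no more than a few counts stand behind *Tnfrsf11a* in the endogenous cells and *Tnfsf11* in the MSC-derived cells.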

Other observations

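Endogenous replicate 1 stood apart from the other two in many members of low level. In 12 of the 41 members its CPM was more than 2 times below that of both other endogenous libraries, namely *Lta*, *Ltb*, *Tnfsf8*, *Tnfsf13*, *Tnfsf13b*, *Tnfsf14*, *Cd70*, *Fasl*, *Tnfrsf4*, *Tnfrsf13b*, *Tnfrsf22* and *Cd27*. In 2 members, *Tnfsf10* and *Tnfsf15*, it was more than 2 times above both. Among the tested members 26.5% were below and 5.88% above by this measure, beside 12.7% and 5% of all genes tested. *Tnf* (4.05, 3.85 and 3.72 CPM), *Tnfrsf1b* (58.9, 53.3 and 60.8 CPM) and *Tnfrsf14* (7.05, 7.61 and 6.61 CPM) did not follow, and were level over the 3 endogenous libraries. The summed leukocyte markers were 161 TPM in endogenous replicate 1 and 207 and 225 TPM in replicates 2 and 3. Within that sum *Laptm5*, *Cd52* and *Coro1a* were lowest in replicate 1. *Ptprc* (10.6 against 5.12 and 5.67 TPM) and *Cd53* (22.4 against 14.7 and 18.2 TPM) were highest there. So were the summed B cell (29.8 against 19.6 and 24.7 TPM) and T and NK cell markers (3.98 against 1.37 and 2.25 TPM). Those of macrophages (44.7 against 56.3 and 64.5 TPM) and neutrophils (7130 against 8490 and 10400 TPM) were lowest there. The part of cell types was not tested.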
